A study of Mus musculus with 46 samples.

Results

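Carbonic anhydrases interconvert carbon dioxide and bicarbonate, and the levels of 7 of their genes (Car2, Car3, Car4, Car8, Car11, Car12 and Car13) were followed across 46 mouse synovial sarcomas. They are 7 of the 16 genes that the annotation names as carbonic anhydrases, out of 56980 genes in the hSS2 count table and 56941 in the hSS1 table. The set was chosen by the Car12 counts of tumours with floxed Arid1a, which were higher than those of controls, so values from that contrast describe the members and test nothing about them. All 7 members passed the filter on low counts in hSS2, and 6 of 7 passed it in hSS1, where Car4 was left out.

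Every tumour expressed a human synovial sarcoma fusion gene, SS18::SSX2 (hSS2) or SS18::SSX1 (hSS1), from the Rosa26 locus, started by injecting Cre protein (TATCre) into a limb about a week after birth. The fusion was the sole labelled allele of 13 hSS2 control and 5 hSS1 control tumours. Conditional knockout alleles of Arid1a, Arid1b or Pbrm1, subunits of BAF chromatin remodelling complexes, homozygous per the study's methods, were added in 8 hSS2 Arid1a-fl, 8 hSS2 Arid1b-fl, 8 hSS2 Pbrm1-fl and 4 hSS1 Pbrm1-fl tumours. The same injection removes floxed exons only in cells that take up Cre, and the pieces were bulk tissue that also held other cells. The study's reporting form gives a mixed CB57Bl/6-svJ strain, an age of some months and littermates as controls, but not which tumours shared a litter.

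Library totals ran from 10137668 to 21294657 counts. The targeted genes were checked as CPM (counts scaled to a common library size by the trimmed mean of M-values). Pbrm1 was at 95.0 to 139 CPM in hSS2 Pbrm1-fl tumours against 171 to 316 CPM in hSS2 controls. In hSS1 Pbrm1-fl tumours Pbrm1 was at 209, 252, 102 and 226 CPM in replicates 1 to 4, against 275 to 373 CPM in hSS1 controls, so replicate 3 alone reached the hSS2 Pbrm1-fl level. Arid1a was at 229 to 276 CPM in Arid1a-fl tumours and at 422 to 587 CPM in 12 of the 13 hSS2 controls, but at 238 CPM in the library labelled hSS2 control replicate 9, and at 297 CPM in the library labelled Arid1b-fl replicate 6 where the other 7 of its group had 444 CPM or more. Arid1b ranges overlapped, with 111 to 347 CPM in Arid1b-fl and 222 to 686 CPM in control tumours. Mouse number ranges, a possible batch, went with the floxed gene: the Pbrm1-fl mice of hSS2 were all numbered 2000 and over, the Arid1a-fl mice under 1000 and the Arid1b-fl mice 1000 to under 2000.

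As background, the family falls into classes by where the protein sits. Car12, Car4, Car9 and Car14 face the outside of the cell from the plasma membrane, where they help set extracellular pH. Car2, Car3, Car13, Car1 and Car7 are cytosolic, Car5a and Car5b mitochondrial and Car6 secreted. Car8, Car10 and Car11 are carbonic anhydrase-related proteins that lack catalytic activity. Car2 is the high-activity enzyme of red cells and osteoclasts, Car3 is abundant in skeletal muscle and adipocytes, and human CA12 is known from epithelia and as a gene raised in some carcinomas.

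Compared per length (CPM per kb of annotated exon, a level), Car3 or Car11 had the highest median of the members in every group. The Car3 median ran from 1.95 CPM per kb in hSS1 Pbrm1-fl to 92.7 in hSS2 Arid1b-fl, and the Car11 median from 8.90 in hSS1 control to 29 in hSS2 Arid1b-fl. Car12 was the least abundant member in the hSS2 control, Arid1b-fl and Pbrm1-fl groups, with medians of 0.0791, 0.0816 and 0.0236 CPM per kb. Over all 16 family genes, the highest in a tumour was Car3 in 19 of 46 tumours, Car14 in 16, Car11 in 10 and Car2 in 1. Car1, Car5a and Car6 did not pass the low-count filter in either table. When the 6 groups were ordered by a member's median, the ranges of neighbouring groups overlapped for every member.

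**Figure D1:**
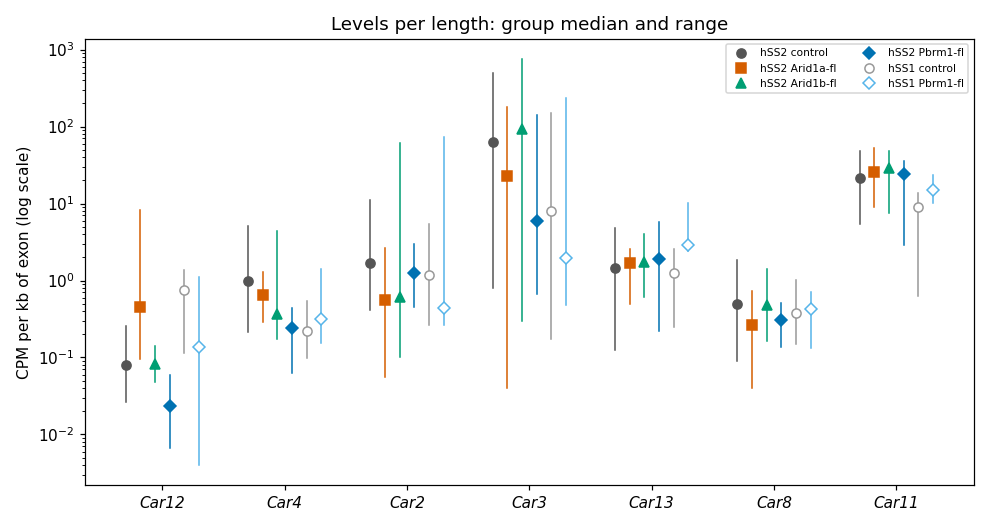
Levels of the 7 members as CPM per kb of exon on a log axis, with the group median as the symbol and the lowest to highest tumour as the line, for the 6 groups; hSS1 groups have open symbols and come from a separately scaled table. Car3 spans the widest range, Car11 sits near the top in every group, and the hSS1 Pbrm1-fl line of Car12 is cut at the bottom because 1 tumour was at 0.

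The gene behind the choice is Car12, at chr9:66713686-66766845 on the plus strand (GRCm38). In Arid1a-fl tumours its levels in replicates 1 to 8 were 7.37, 17, 1.25, 0.729, 3.63, 3.25, 0.733 and 62.8 CPM. In the 13 hSS2 controls the lowest was 0.204, the median 0.601 and the highest 1.92 CPM. All 8 Arid1a-fl tumours were above the control median and 5 of 8 above every control, while the other 3 lay inside the control range. The fitted difference was 4.03 on the log2 scale (SE 0.57) and was 2.71 without Arid1a-fl replicate 8, the tumour at 62.8 CPM. With only the 5 controls of the same mouse number range, at 0.462 to 1.92 CPM, it was 3.83. Without control replicate 9, whose Arid1a was low, it was 4.01. Of the 7 members, 1 passed an adjusted p of 0.05 in this contrast (edgeR quasi-likelihood fit, p adjusted by Benjamini-Hochberg) where 3.17% of the 20083 genes tested did, and nothing is read from that count.

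Car12 levels in the remaining groups had no part in the choice, apart from the shared controls. In Arid1b-fl tumours Car12 was at 0.365 to 1.06 CPM, with a median of 0.620 CPM, all inside the control range. In hSS2 Pbrm1-fl tumours the lowest was 0.0502, the median 0.179 and the highest 0.456 CPM, from 1 to 8 reads a library. All 8 of them lay below the control median and 5 below every control. The difference was -1.80 (log2, SE 0.66) and did not pass (adjusted p = 0.0884, edgeR), whereas DESeq2 called it (-1.85, adjusted p = 0.0334). Against the 4 controls of the same number range, at 0.608 to 1.17 CPM, the ranges did not overlap and the difference was -2.13 (adjusted p = 0.229, edgeR). Car12 reached the count cutoff of the filter in 5 controls and 0 Pbrm1-fl tumours where 8 libraries were needed, so it entered this fit through other groups, among them all 8 Arid1a-fl tumours, and had no test with these groups alone.

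In hSS1 controls Car12 was at 6.65, 5.71, 10.4, 0.858 and 1.92 CPM, and the first 3 had more than every hSS2 control. In the same replicates 1 to 5 epithelial markers summed to 596, 290, 512, 7.86 and 12.3 CPM, so the 3 tumours with more Car12 were those with more epithelial marker RNA. The part of epithelial cells in this was not tested, and fusion and separately scaled table cannot be told apart. In hSS1 Pbrm1-fl tumours Car12 was at 1.90, 8.51, 0 and 0.180 CPM. The library at 0 allows up to 0.296 CPM, the value of 3 counts, and like the other floors covers counting error only. These ranges overlapped the controls, and the difference was -0.94 (log2, SE 1.22, adjusted p = 0.727, edgeR). In the same hSS1 Pbrm1-fl tumours epithelial markers summed to 184, 101, 163 and 37.4 CPM. The tumour at 0 for Car12 thus had more epithelial marker RNA than the tumour with the most Car12.

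**Figure D2:**
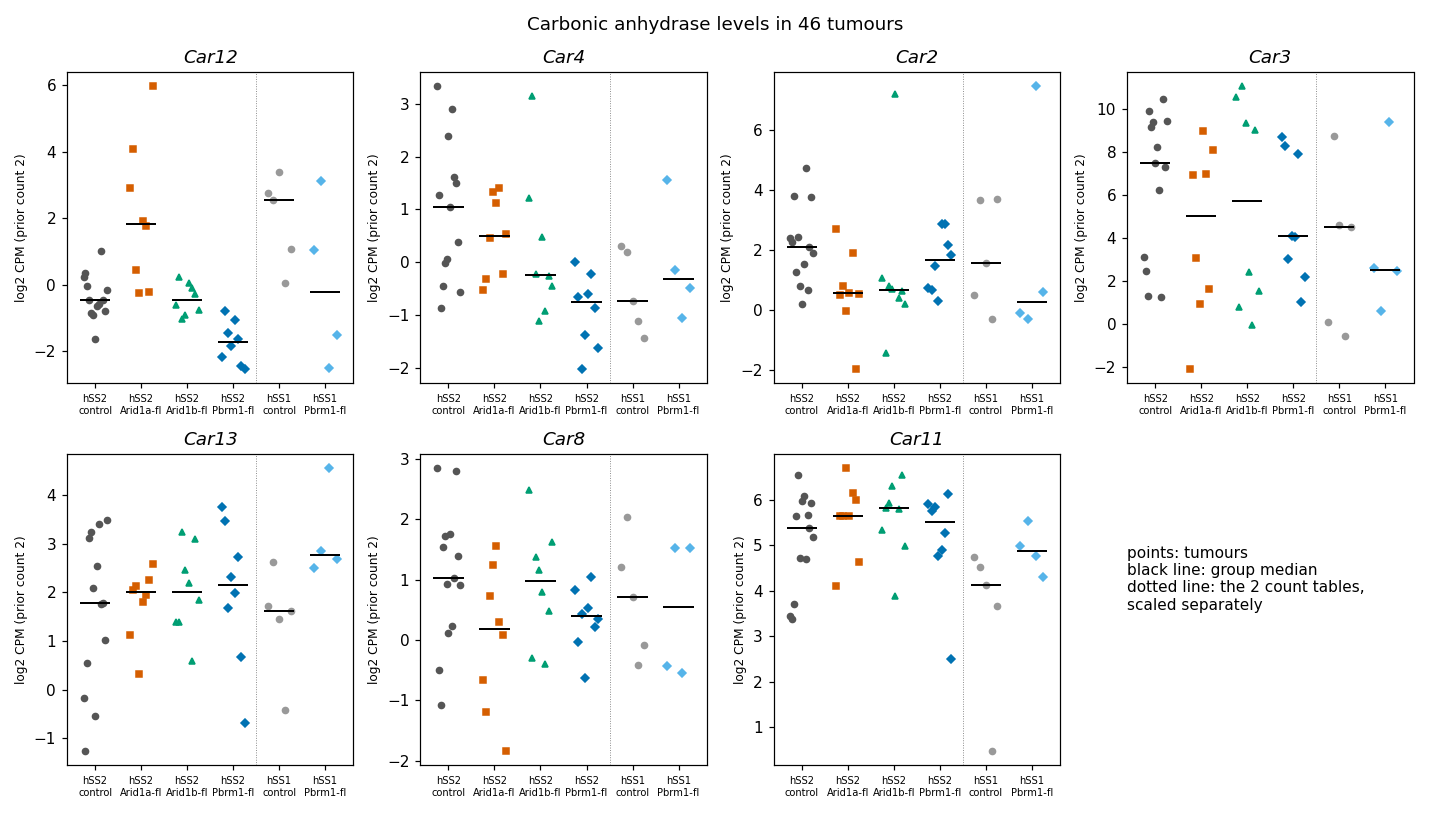
Level of each member in every tumour as log2 CPM with a prior count of 2, by group; points are the 46 tumours, black lines group medians, and the dotted line separates the count tables, which were scaled separately. Car12 in Arid1a-fl reaches 62.8 CPM in 1 tumour, Car4 is low in all 8 hSS2 Pbrm1-fl tumours, and single tumours stand far above their groups for Car2.

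Epithelial markers were set beside Car12 because some synovial sarcomas form glands and CA12 marks epithelia. The 8 markers (Epcam, Krt8, Krt18, Krt19, Cdh1, Cldn3, Cldn4 and Cldn7) were each detected in every group, and none passed in a tested comparison. Their summed level was 5.86 to 95.1 CPM in Arid1a-fl tumours, 18.0 to 198 in hSS2 controls, 9.69 to 106 in hSS2 Pbrm1-fl and 7.86 to 596 in hSS1 controls. In the 37 hSS2 tumours, with both values centred on group means, Car12 and the mean log2 level of these markers gave r = -0.083 and rho = -0.249 (permutation test within groups, p = 0.65 and 0.158, adjusted p = 0.65 and 0.221, two-sided). Without the 2 tumours farthest from the median score r was -0.309 (adjusted p = 0.0892, permutation) and rho was -0.428 (adjusted p = 0.0313, permutation). Within the mouse number ranges r was -0.070, 0.086 and -0.033.

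Of the family, Car14, another transmembrane enzyme, had its highest values in the same Arid1a-fl tumours as Car12. Car14 was at 456 CPM in replicate 2 and 1072 CPM in replicate 8, and no Arid1a-fl tumour (78.9 CPM or more) overlapped the controls (3.77 to 67.8 CPM). Car10 was higher in most Arid1a-fl tumours too, with a median of 9.50 CPM against 2.96 CPM in controls. For Car10, 7 of 8 lay above the control median and 4 above every control. Across the 37 hSS2 tumours the Spearman rho of Car12 with Car14 was 0.481, a value that contains the group difference, and in the 29 tumours without Arid1a-fl it was 0.073.

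**Figure D3:**
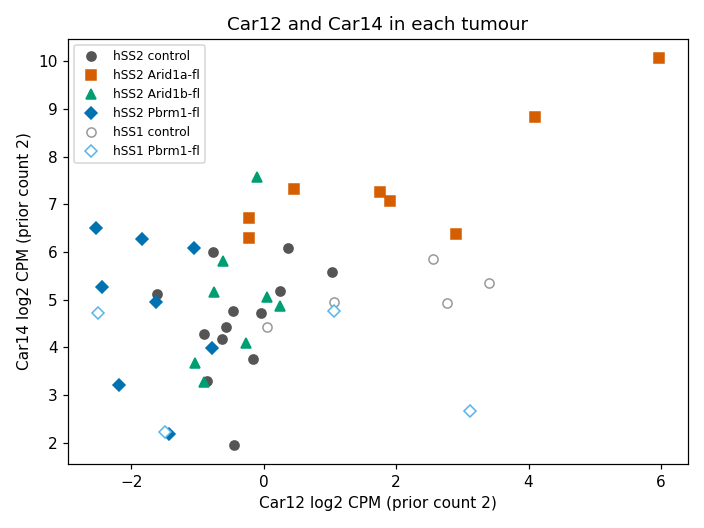
Car12 against Car14 in each of 46 tumours, both as log2 CPM with a prior count of 2; hSS1 tumours have open symbols and come from a separately scaled table. Arid1a-fl replicates 2 and 8 (orange squares) sit at the upper right, 1 Arid1b-fl tumour reaches 190 CPM of Car14 without high Car12, and rho was 0.073 over the 29 other hSS2 tumours.

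Genes whose level was most like that of Car12 were ranked by Spearman rho over the 37 hSS2 tumours among 17287 genes that were tested and averaged at least 1 CPM. The leading 6 were Adam5 (0.783), Dact2 (0.778), Rcbtb2 (0.756), Nedd4 (0.753), Tsku (0.750) and Sh3bgrl2 (0.745). Nedd4 encodes a ubiquitin ligase, Dact2 a regulator of Wnt signalling and Tsku a secreted leucine-rich repeat protein. In the 29 of these tumours that were not Arid1a-fl the rho of the 6 genes with Car12 was 0.585 to 0.781, which is no separate test, since the same tumours had served to pick them. The 37 points share library depth and scaling, and Car12 counts were low in most of them.

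The neighbours of Car12 did not pass in any comparison. Within 500 kb, 12 other protein-coding genes were tested, and none was called in any of the 4 comparisons with controls. Of all genes tested, 7.35% were called in hSS2 Pbrm1-fl, 3.17% in Arid1a-fl, 0.0548% in Arid1b-fl and 0.00562% in hSS1 Pbrm1-fl. With so few neighbours nothing is read from that count. In hSS2 Pbrm1-fl the differences of these 12 genes ran from -0.95 to 0.26, and in hSS2 Arid1a-fl from -1.24 to 0.56 (log2).

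The sequence before the start is shown for Car12, for Car14 that was high with it, and for Car4, the member that passed a test. RefSeq promoter entries (GRCm38.p6) existed for 3 of the 7 members (Car4, Car11 and Car12). The 250 bases before the start are printed 5′ to 3′ on the strand of the gene, in lower case with matches to a searched motif in capitals. They lie at chr9:66713436-66713685 (plus) for Car12, chr3:95904686-95904935 (minus) for Car14 and chr11:84957504-84957753 (plus) for Car4.
Car12: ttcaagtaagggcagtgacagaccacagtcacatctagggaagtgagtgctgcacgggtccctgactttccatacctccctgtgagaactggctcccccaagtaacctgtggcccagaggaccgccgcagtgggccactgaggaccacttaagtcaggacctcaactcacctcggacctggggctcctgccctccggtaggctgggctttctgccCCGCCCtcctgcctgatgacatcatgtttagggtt
Car14: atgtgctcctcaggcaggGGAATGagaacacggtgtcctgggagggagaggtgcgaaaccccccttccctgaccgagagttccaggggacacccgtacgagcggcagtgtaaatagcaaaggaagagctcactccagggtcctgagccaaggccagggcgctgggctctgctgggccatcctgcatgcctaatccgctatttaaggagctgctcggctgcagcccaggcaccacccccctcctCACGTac
Car4: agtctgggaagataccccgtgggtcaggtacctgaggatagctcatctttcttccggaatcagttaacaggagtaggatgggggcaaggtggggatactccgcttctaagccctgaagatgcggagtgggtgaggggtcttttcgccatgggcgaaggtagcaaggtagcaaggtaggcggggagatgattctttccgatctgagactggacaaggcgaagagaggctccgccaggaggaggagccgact
The motifs were the core of the hypoxia response element (ACGTG, held by 16.6% of 32817 such windows), the AP-1 site (TGANTCA, 6.75%), the GC box (GGGCGG, 32.7%), the TATA box (TATAAA, 12.4%) and the TEAD site (GGAATG, 12.6%), each on both strands, and no matches overlapped here. Car12 held 1 GC box 35 bases before the start. Car14 held 1 hypoxia element core 7 bases and 1 TEAD site 232 bases before the start, and the Car4 window held none of the 5 motifs. These matches describe letters only.

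Car4, a membrane-anchored enzyme of capillary endothelium at chr11:84957786-84966044, was the member that fell in hSS2 Pbrm1-fl tumours. Its levels in replicates 1 to 8 were 0.876, 0.513, 0.123, 0.262, 0.538, 0.736, 0.428 and 0.201 CPM. In the 13 controls the lowest was 0.423, the median 1.95 and the highest 9.97 CPM. All 8 were below the control median and 3 below every control, so the groups overlapped at the low end. The difference was -2.64 (log2, SE 0.65, adjusted p = 0.00995, edgeR). It was -2.89 against the 4 controls of the same number range (0.423 to 9.97 CPM, adjusted p = 0.0471, edgeR), and between -2.83 and -2.30 with each tumour left out in turn. Car4 counts were 2 to 11 reads in these tumours, and 6 to 169 in controls; 10 controls and 2 Pbrm1-fl tumours reached the count cutoff of the filter, so Car4 passed it mainly where it was higher, and with no filter the difference was -2.64 (adjusted p = 0.0143, edgeR). The Arid1b-fl tumours had 0.342 to 8.69 CPM (median 0.719) and the Arid1a-fl tumours 0.567 to 2.52 CPM (median 1.28), both overlapping the controls.

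Of the 7 members, 1 was called in this comparison, where 7.35% of all genes tested were called. The members' median difference was -1.11, with 2 of 7 above 0, against -0.004 over all genes. Besides Car12, the uncalled members were Car8 (-1.11, SE 0.49, adjusted p = 0.164), Car3 (-1.62, SE 1.32), Car2 (-0.86, SE 0.85), Car13 (0.24, SE 0.52) and Car11 (0.02, SE 0.39), all by edgeR with adjusted p of 0.164 to 0.987. Of the other 9 family genes 6 were tested and Car7, a cytosolic enzyme best known from neurons, rose by 0.93 (log2, SE 0.21, adjusted p = 0.00421, edgeR), from a mean of 1.55 ± 0.528 CPM (SD, n = 13) to 2.96 ± 0.905 CPM (SD, n = 8). The 13 controls are the same tumours as in the contrast that chose Car12.

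Of the 7 capillary endothelial markers none fell with Car4. They summed to 133 to 429 CPM in hSS2 Pbrm1-fl tumours and to 116 to 576 CPM in controls, and Plvap, a diaphragm protein of fenestrated endothelium, rose by 0.82 (log2, adjusted p = 0.0213, edgeR). Over the 37 hSS2 tumours Car4 and the endothelial score gave r = 0.167 and rho = 0.106 (permutation test within groups, p = 0.381 and 0.558, adjusted p = 0.444 and 0.651). Within number ranges r was 0.092, 0.127 and 0.377. Without the 2 farthest tumours it was 0.116.

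In the hSS1 background Car4 was at 1.06, 0.966, 0.429, 0.286 and 0.192 CPM in controls and at 2.75, 0.724, 0.306 and 0.539 CPM in Pbrm1-fl tumours. These are 2 to 29 reads, too few for the hSS1 filter, so no hSS1 test of Car4 was made. In the fit over all 46 tumours the Pbrm1-fl effect on Car4 in hSS1 minus that in hSS2 was 3.49 (log2, SE 1.07, adjusted p = 0.0593, edgeR), short of the threshold. Only 2 hSS1 control and 2 hSS1 Pbrm1-fl tumours reached the count cutoff there, against 10 hSS2 controls, and with no filter the adjusted p was 0.0915 (edgeR). DESeq2 called it (adjusted p = 0.0204), as did edgeR without hSS2 control replicate 3 (adjusted p = 0.0475), hSS2 Pbrm1-fl replicate 1 (0.0453) or hSS1 Pbrm1-fl replicate 3 (0.0473), and without hSS1 Pbrm1-fl replicate 1 it fell to 2.48 (0.284). Of the 7 members 0 were called for this difference by edgeR, where 2.86% of 21725 genes were, and DESeq2 called 1. An unadjusted p under 0.05 was held by 2 members and by 4111 of the 21725 genes (edgeR). All 7 differences were above 0, with a median of 1.56 against 0.016 over all genes. Without hSS1 Pbrm1-fl replicate 3, however, those of Car2 (-1.85) and Car3 (-2.85) turned, leaving 5 of 7 above 0 and a median of 1.01. In hSS1 Pbrm1-fl tumours Pbrm1 was at 102 to 252 CPM, lowest in replicate 3, and in hSS2 Pbrm1-fl tumours at 95.0 to 139 CPM. Background and extent of Pbrm1 loss thus cannot be told apart in these differences.

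**Figure D4:**
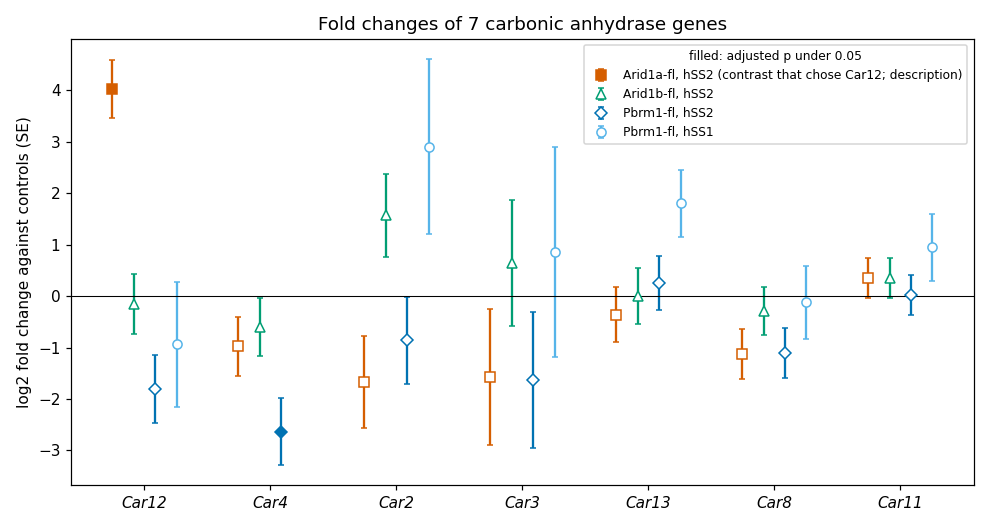
Difference of each floxed group from its controls for the 7 members, as log2 fold change with its SE as the bar; filled symbols mark an adjusted p under 0.05, and the Arid1a-fl contrast chose Car12 and is a description. The filled blue diamond is Car4 in hSS2 Pbrm1-fl at -2.64, and Car4 in hSS1 has no symbol because it was not tested.

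Car2 was low in most tumours and very high in 2 of them. In Arid1b-fl tumours its levels in replicates 1 to 8 were 1.97, 0.25, 1.61, 1.5, 149, 1.21, 1.42 and 1.03 CPM. The hSS2 controls had a lowest value of 1.02, a median of 4.13 and a highest of 26.8 CPM, and replicate 5 was the lone Arid1b-fl tumour above their median. The edgeR difference was 1.57 (log2, SE 0.805, adjusted p = 0.801). It turned to -2.39 without replicate 5 (adjusted p = 0.653, edgeR), while DESeq2, which by default can replace outlying counts in groups of this size, gave -2.20 and called it (adjusted p = 0.0423). In Arid1b-fl replicate 5, Car2 made up 60.9% of the summed family level per kb.

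That Arid1b-fl tumour was rich in red cell RNA. Its 8 red cell markers, among them the globins Hba-a1 and Hbb-bs and the haem synthesis enzyme Alas2, summed to 47928 CPM against 25.2 CPM in the lowest tumour of the group and a group median of 58.9 CPM. Its macrophage markers summed to 863 CPM, and its osteoclast score, a mean of log2 values, was 2.24 where the group median was 0.68, although the summed level of those markers (141 CPM) was the lowest of the group. Their part in the Car2 level was not tested. By edgeR 0 of the 7 members were called in Arid1b-fl, where 0.0548% of all genes were, and DESeq2 called Car2 alone. An unadjusted p under 0.05 was held by 0 members, against 1250 of 20083 genes (edgeR). The red cell genes had a median difference of 4.21 with 0 of 6 tested called. Arid1b-fl values of the other members were -0.60 for Car4 (SE 0.57), 0.64 for Car3 (SE 1.22), -0.28 for Car8 (SE 0.47), 0.36 for Car11 (SE 0.39) and -0.15 for Car12 (SE 0.59), and Car13 was at 0.000 (SE 0.54).

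Across the 37 hSS2 tumours Car2 went with the red cell score (r = 0.712, rho = 0.564, permutation within groups p = 0.00188 and 0.00094, adjusted p = 0.00439 and 0.00219). The relation rests on the farthest tumours: without the 2 of them r was 0.337 (p = 0.088, adjusted p = 0.123, permutation). Within number ranges r was 0.466 under 1000, 0.942 from 1000 to under 2000, the range that holds Arid1b-fl replicate 5, and 0.369 from 2000. The osteoclast score gave r = 0.165 and rho = 0.059 over all 37 (p = 0.377 and 0.736, adjusted p = 0.444 and 0.736, permutation). Within ranges it went both ways, with r = 0.079, 0.784 (adjusted p = 0.0012, permutation) and -0.570 (adjusted p = 0.215, permutation).

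The genes most like Car2 in level were Dazap2 (rho 0.636), Gclc (0.625) and Gclm (0.617). Gclc and Gclm encode the catalytic and modifier subunits of the enzyme that starts glutathione synthesis. In the 29 tumours without Arid1a-fl their rho was 0.674 and 0.548.

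In hSS2 Pbrm1-fl tumours Car2 was at 1.10 to 7.23 CPM (median 3.05), in Arid1a-fl at 0.133 to 6.35 CPM (median 1.35) and in hSS1 controls at 1.24, 12.5, 2.83, 0.643 and 13 CPM, none of them near the 2 high values.

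The other tumour with high Car2 was hSS1 Pbrm1-fl replicate 3, at 177 CPM against 0.759, 0.634 and 1.35 CPM in replicates 1, 2 and 4. It held few red cell markers, with a sum of 59.8 CPM, and its osteoclast markers summed to 8.97 CPM, the lowest of its group, with 2 of 6 at 0. Car3 was at 672 CPM in this tumour against 1.36 to 5.89 CPM in the other 3, and Car13 at 23.3 CPM against 5.51 to 7.06 CPM. Its skeletal muscle markers summed to 9.28 CPM, the lowest of the group, with 2 of 15 at 0, and 6 of 8 adipocyte markers were at 0, with a sum of 28.8 CPM, the highest of the group. The part of these cell types in the 3 levels was not tested. Car9, a hypoxia-induced membrane enzyme, was also high there, at 42.8 CPM against 0.665 to 0.899 CPM. Replicate 3 is the tumour with the lowest Pbrm1 of its group. High Car9 was not confined to it: in hSS2 Arid1b-fl tumours Car9 reached 27.8 CPM, with a group median of 2.37 CPM.

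Car13, Car3 and Car2 lie together on chromosome 3, at chr3:14641727-14663002, chr3:14863512-14872523 and chr3:14886273-14900770, with Car1 and 2 pseudogenes between them that were too low to test. Car1 had 7 reads (0.714 CPM) in hSS1 Pbrm1-fl replicate 3 and 0 to 0.190 CPM in the other 3 tumours of the group. In hSS2 Car13 was at 0.292 to 11.1 CPM in controls, 1.13 to 5.91 in Arid1a-fl, 1.38 to 9.34 in Arid1b-fl and 0.502 to 13.3 in Pbrm1-fl, with overlap throughout. In hSS2 control replicate 9 Car2 was at 26.8 CPM, the highest of the controls, Car13 at 10.4 CPM, and Car3 at 75.3 CPM, below the control median but the highest of the 18 hSS2 tumours with low muscle scores. Its muscle markers summed to 28.3 CPM. Over the 37 hSS2 tumours, without centring on group means, the rho of Car13 was 0.590 with Car3 and -0.005 with Car2, and that of Car2 with Car3 was 0.060.

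In hSS1 Pbrm1-fl against hSS1 control, 0 of 6 tested members were called by edgeR, where 0.00562% of 17786 genes were. Of them, Car13 alone had an unadjusted p under 0.05 (edgeR), against 3059 of the 17786 genes, and DESeq2 called 0. Car13 was at 5.51, 7.06, 23.3 and 6.29 CPM against 3.10, 5.95, 2.57, 0.572 and 2.88 CPM in controls, with 3 of 4 tumours above every control (1.80, SE 0.65, adjusted p = 0.219, edgeR). Without replicate 3 this was 1.07. The Car2 difference of 2.90 (SE 1.70, adjusted p = 0.408) became -2.69 without replicate 3, and that of Car3 went from 0.85 (SE 2.05, adjusted p = 0.866) to -4.48, all by edgeR. In hSS1 Pbrm1-fl the remaining members were Car11 at 0.95 (SE 0.65) and Car8 at -0.12 (SE 0.71).

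Car3 had the widest range of the members, from 0.113 to 2150 CPM in hSS2 tumours. In the 13 controls the lowest was 2.31, the median 182 and the highest 1419 CPM. Arid1b-fl values were 0.865 to 2150 CPM, Arid1a-fl 0.113 to 510 CPM and Pbrm1-fl 1.90 to 411 CPM, so all groups overlapped. None of the tested Car3 differences passed. In hSS1 controls Car3 was at 0.887, 424, 24.7, 0.5 and 23.1 CPM. Replicates 2 and 3 had like muscle marker sums (759 and 657 CPM). Slow muscle markers summed to 287 CPM in replicate 2 and 1.03 CPM in replicate 3. Replicate 5, with Car3 close to that of replicate 3, had a muscle marker sum of 15.7 CPM and a slow muscle sum of 3.55 CPM.

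In the hSS2 tumour pieces Car3 went with skeletal muscle RNA. The 15 muscle markers, such as Acta1 and Ckm, were detected in every group, and their summed level ran from 10.6 to 55656 CPM across hSS2 tumours. Their score split the 37 tumours into 18 with scores of -1.57 to 4.11 and 19 with scores of 6.38 to 10.86, so no pooled value is given. Car3 was at 0.113 to 75.3 CPM in the lower set and at 123 to 2150 CPM in the upper, without overlap. The lower set held 5 control, 4 Arid1a-fl, 4 Arid1b-fl and 5 Pbrm1-fl tumours, and the upper 8, 4, 4 and 3. Within the upper set, centred on group means, r was 0.905 and rho 0.896 (permutation p = 2e-05 and 7e-05, adjusted p = 7e-05 and 0.000245). Within the lower set r was 0.389 and rho 0.432 (permutation p = 0.174 and 0.111, adjusted p = 0.304 and 0.194).

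The adipocyte score, as planned over all 37 hSS2 tumours, gave r = 0.811 and rho = 0.762 with Car3 (permutation p = 1e-05 for both, adjusted p = 7e-05 for both). Within number ranges r was 0.628, 0.925 and 0.949. These values span both muscle sets, and the adipocyte and muscle scores had r = 0.802 over the 37 tumours. Adipocyte markers were therefore also set beside Car3 within the same 2 muscle sets, a choice made after seeing the data. In the lower set r was 0.486 and rho 0.525 (permutation p = 0.0283 and 0.0422, adjusted p = 0.0566 and 0.0843), and in the upper r was 0.447 and rho 0.298 (permutation p = 0.096 and 0.242, adjusted p the same). Neither passed. The adipocyte and muscle scores had r = 0.293 in the lower and 0.504 in the upper set, a description. The genes most like Car3 in level were Xirp1 (rho 0.957), Alpk3 (0.951) and Trdn (0.948), which encode proteins of striated muscle. These rho values were not centred on group means and contain the gap between the 2 muscle sets. Fewer muscle cells and less muscle RNA per cell cannot be told apart in these bulk pieces, and the same holds for each cell type named here.

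**Figure D5:**
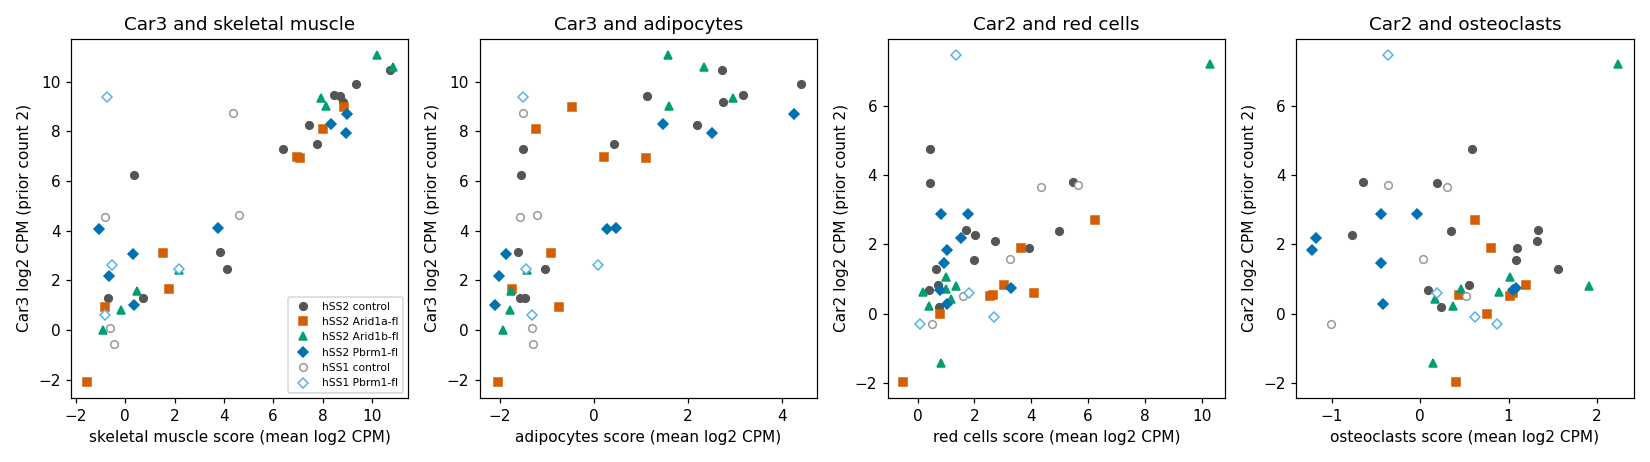
Car3 against the skeletal muscle and adipocyte scores and Car2 against the red cell and osteoclast scores, as log2 CPM with a prior count of 2 against the mean log2 CPM of the marker list, in 46 tumours; hSS1 tumours have open symbols and come from a separately scaled table. Car3 is higher at higher muscle scores, hSS1 Pbrm1-fl replicate 3 lies apart (672 CPM at a score of -0.75), and the 2 highest Car2 values sit at red cell scores of 10.28 and 1.37.

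The inactive members differed in level. Car11, at chr7:45699843-45704682, was at 42.1 ± 25 CPM in hSS2 control (SD, n = 13), 53.5 ± 26.9 in Arid1a-fl (n = 8), 53.8 ± 25.2 in Arid1b-fl (n = 8) and 42.6 ± 21.2 in Pbrm1-fl (n = 8). In hSS1 it was at 16.1 ± 9.90 CPM in controls (n = 5) and 31.1 ± 11 CPM in Pbrm1-fl (n = 4), with 3 of 4 above every control. Car8, at chr4:8143362-8239041, was at group means of 1.20 to 2.62 CPM. Neither passed in a tested comparison.

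The genes around carbonic anhydrase function were counted by list in hSS2 Pbrm1-fl by edgeR. Of 9 tested bicarbonate transporters 1 fell, Slc4a7, a sodium-bicarbonate cotransporter (-0.64, SE 0.14, adjusted p = 0.00444), and 0 rose. Of 12 proton and lactate transporters and 14 hypoxia targets 0 were called. In Arid1b-fl and in hSS1 Pbrm1-fl 0 genes of these lists were called. For the difference between the backgrounds 1 of 14 hypoxia targets was called, P4ha2, a collagen prolyl hydroxylase (2.83, SE 0.73, adjusted p = 0.0269). Among source markers the osteoclast proteinase Ctsk (-2.32, adjusted p = 0.00772) and phosphatase Acp5 (-1.94, adjusted p = 0.0290) fell in hSS2 Pbrm1-fl. The third tested, the proton pump subunit Atp6v0d2, was at 0.16 (adjusted p = 0.929). The remaining osteoclast markers Ocstamp, Dcstamp and Calcr were too low to test. Car2, which osteoclasts also use, was not called in hSS2 Pbrm1-fl. Between the backgrounds the Pbrm1-fl effect was higher in hSS1 for Ctsk (3.99, adjusted p = 0.0221) and Acp5 (4.01, adjusted p = 0.0337) and at -3.08 for Atp6v0d2 (adjusted p = 0.291). For these genes and P4ha2 too, background and extent of Pbrm1 loss cannot be told apart. The muscle, slow muscle, adipocyte, red cell, epithelial, macrophage and Schwann cell lists had 0 genes called in the tested comparisons.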

How the data were processed

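RNA was sequenced from 46 mouse tumours, 1 library each. Per the labels, rRNA-depleted stranded libraries were made, and the submitters' processing notes name STAR 2.7.11, featureCounts 1.6.3 and mm10. The authors deposited raw counts per Ensembl gene in 1 table for hSS2 and 1 for hSS1; annotation release, strand setting and handling of multi-mapping reads were not given in the sources used here. Symbols, positions and exon lengths came from GENCODE M21 (GRCm38, the same build as mm10), which named 91.5% and 91.3% of identifiers.

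Groups followed the labels, and no libraries of a group agreed within counting noise (0 of 178 pairs). Counts were tested with edgeR 4.0.16 (R 4.3.3; filterByExpr, TMM, robust quasi-likelihood, two-sided) in 1 fit of the 37 hSS2 libraries, 1 of the 9 hSS1 libraries, and 1 of all 46 for the difference between backgrounds, with Benjamini-Hochberg adjustment over all genes tested and a threshold of 0.05. DESeq2 1.42.0, another normalization, no filter, other sample sets and leaving out each library were alternatives. The tests were checked on simulated data. CPM was TMM-scaled within each table, so levels were not tested across tables. Scores were means of log2 CPM (prior count 2) over a marker list. The 6 relations between a member and a score were tested by 100000 permutations within groups (scipy 1.17.1), adjusted together over 7 values, since the muscle score was split where a gap exceeded 15% of its range with at least 6 tumours on each side. Members and lists were chosen with earlier results of these data known. Named genes were the members, the other carbonic anhydrases by level or call, the list genes called, the leading 6 genes by rho for Car12 and 3 each for Car2 and Car3, and protein-coding genes within 500 kb of Car12. Littermates were used as controls per the study, but no source used here ties a tumour to a litter, so litter was no term in the fits and the p-values measure the spread between these tumours. Depth of 10137668 to 21294657 counts left Car12 and Car4 with few reads in many libraries.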

Additional observations from a re-analysis of the deposited data

Results flagged for a closer look

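Of 35 sets of tumours (7 members in the 5 groups of 4 to 8 tumours), 7 had 1 tumour far from the rest by Dixon's 95% criterion on CPM. Its rate of about 1 in 20 sets holds for normally distributed values. Levels here were often skewed upwards (Car3 in hSS2 Pbrm1-fl had a mean of 127 and a median of 16.8 CPM). The 7 flags also fell on only 5 tumours, so their number is not set against that rate. hSS1 Pbrm1-fl replicate 3 stood apart for Car2 (177 CPM, next tumour 1.35 CPM), Car3 (672 CPM, next 5.89 CPM) and Car13 (23.3 CPM, next 7.06 CPM). Car2 was also far out in hSS2 Arid1b-fl replicate 5 (149 CPM, next 1.97 CPM). Car12 stood apart in hSS2 Arid1a-fl replicate 8 (62.8 CPM, next 17 CPM), in the contrast that chose the gene. Car4 did so in hSS2 Arid1b-fl replicate 2 (8.69 CPM, next 2.20 CPM). Car3 did so in hSS1 control replicate 2 (424 CPM, next 24.7 CPM), whose muscle markers summed to 759 CPM, the highest of its group.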

How the results depend on the processing

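No paired analysis was possible because the labels give no shared replicate numbers and no litters. The fall of Car4 in hSS2 Pbrm1-fl passed under each alternative run. DESeq2 called 2 members in hSS2 Pbrm1-fl (Car4 and Car12), 1 in Arid1b-fl (Car2) and 1 (Car4) for the difference between backgrounds. In Arid1a-fl 2 were past its threshold, where they describe. The share of all genes that DESeq2 called is not given here, so nothing is read from its counts of members. By edgeR, leaving out single tumours gave 0 to 1 members for the difference between backgrounds and changed no count elsewhere. The causes were not tested.

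Signs turned for small values and for some larger ones. Car11 in hSS2 Pbrm1-fl was -0.005 with DESeq2 size factors and with DESeq2, and -0.011 with only the groups compared. Car13 in Arid1b-fl was -0.010, -0.009 and -0.006 in the same fits, and -0.086 with controls of the same mouse number range. That range gave -0.213 for Car11 and 0.747 for Car12 in Arid1b-fl, 0.799 for Car8 in hSS1 Pbrm1-fl and -0.069 for Car11 between backgrounds. A large value turned as well: Car2 in Arid1b-fl went from 1.57 to -2.20 with DESeq2.

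With single tumours left out, Car11 ran from -0.12 to 0.18 and Car13 from -0.076 to 0.42 in hSS2 Pbrm1-fl. In Arid1b-fl Car2 ran from -2.39 to 1.97, Car3 from -0.021 to 0.99, Car12 from -0.30 to 0.052 and Car13 from -0.23 to 0.16. In hSS1 Pbrm1-fl Car2 ran from -2.69 to 3.38, Car3 from -4.48 to 3.81 and Car8 from -0.46 to 0.42. Between backgrounds Car2 ran from -1.85 to 4.24, Car3 from -2.85 to 5.43 and Car12 from -1.06 to 1.29.

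Relations lost their call within smaller sets: Car3 with muscle in the upper set had r = 0.963 under 1000 and 0.844 from 1000 to under 2000, Car3 with adipocytes, which had r = 0.811 over all 37 tumours and so across both muscle sets, 0.628 under 1000, 0.486 within the lower and 0.447 within the upper muscle set, and Car2 with red cells 0.337 without the 2 farthest tumours, 0.466 under 1000 and 0.369 from 2000. Car2 with osteoclasts was 0.784 from 1000 to under 2000 and -0.570 from 2000, and Car12 with epithelium 0.086 from 1000 to under 2000. For single values, 856 alternatives counted as the same, 47 turned sign and 5 newly passed with the sign kept. The same meant that direction and call were kept. In the Arid1a-fl contrast and for group mean levels it meant a shift smaller than the SD within a group. Car2 in Arid1b-fl with DESeq2 (adjusted p = 0.0423) passed as well and is among the 47 that turned sign. Car12 and Car4 rest on few reads, which limits what depth can show, and the hSS1 groups hold 5 and 4 tumours.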
